A study of Mus musculus with 10 samples.

Results

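RNAseq of interscapular brown adipose tissue (iBAT) was searched for the genes of the proteasome. Every gene whose symbol began with Psma, Psmb, Psmc, Psmd, Psme, Psmf or Psmg and a number was taken, pseudogenes apart, which gave 50 of the 55414 genes counted. Both groups were male C57BL/6J mice on normal chow, 12 to 14 weeks old, with both alleles of retinol saturase (RetSat) floxed around exons 2 and 3. The 5 Cre- mice had no recombinase and kept RetSat. The 5 Cre+ mice also carried Ucp1-Cre, in which the Ucp1 promoter drives the recombinase, so that cells of the fat pad without Ucp1 can keep RetSat. Total counts were 91903095 to 132499312 per library, each mate of a read pair being counted. RetSat fell from 185 ± 42.3 to 23.9 ± 8.63 CPM (counts per 1000000, scaled by TMM; SD, n = 5 per group), and markers of brown adipocytes summed to 16414 to 20324 CPM in Cre- and 16488 to 20102 CPM in Cre+ libraries, so the tissue matched its label. Cre- mouse 2 and Cre+ mouse 4 carried 560.1 and 274.6 CPM of skeletal muscle markers against 2.18 to 21.5 CPM in the other 8, and 3 of the Cre+ libraries, from mice 1, 4 and 5, bore identifiers with 1 more letter (here called lettered), whose meaning was not given in the sources used here.

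The proteasome is the protease that takes apart proteins tagged with ubiquitin. Its core is a barrel of 4 stacked rings, in which alpha subunits form the gates and beta subunits the chamber, and only Psmb5, Psmb6 and Psmb7 cut, after hydrophobic, acidic and basic residues. A cap sits on the barrel, with a base of ATPases that unfold the substrate and a lid that removes the ubiquitin. Interferons induce Psmb8, Psmb9 and Psmb10, which replace the cutting subunits in newly built cores and so make the immunoproteasome, whose peptides suit antigen presentation. When proteasomes fall short, the transcription factor Nfe2l1 (NRF1) raises the subunit genes together, and in brown fat this route is known to keep thermogenic adipocytes working in the cold.

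By these roles the 50 genes fell into 7 alpha ring, 7 beta ring and 3 immunoproteasome genes, 6 base ATPases, 3 other base subunits, 8 lid subunits, 4 chaperones of core assembly, 3 chaperones of base assembly, 5 activators, the regulator Psmf1 and 2 subunits of other tissues, Psma8 of testis and Psmb11 of thymus. The remaining match, Psmc3ip, is a factor of meiotic recombination that shares only the symbol. The 31 ring, base and lid genes are called the constitutive subunits here. Psma8 and Psmb11 did not pass the filter on low counts. Psma8 had 0 to 10 counts per library in Cre- and 2 to 9 in Cre+ mice, and Psmb11 had 0 in 6 of 10 libraries and at most 2 in the others. A count of 0 allowed up to 0.0226 to 0.0326 CPM at these depths, for counting error alone. The other 48 genes were tested.

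No proteasome gene differed between Cre+ and Cre- mice at an adjusted p under 0.05 (0 of 48, edgeR), where 29 of 17690 genes did (0.164%). DESeq2, which called 2.28% of genes, and voom with sample quality weights, which called 0.837%, also called 0 of the 48, with smallest adjusted p-values of 0.238 and 0.192 among them. At an unadjusted p under 0.05 in edgeR stood 6 of the 48, or 12.5%, against 12.3% of all genes. Of these 6, 5 were higher in Cre+ mice (Psmb4, Psmb5, Psma5, Psmb9 and Psmb10; 6.40% of all genes) and 1 was lower (Psmc6; 5.95%). In none of the 48 were the 2 groups' CPM ranges apart, as they were for 2.67% of genes. DESeq2 gave an unadjusted p under 0.05 for 6 members, against 13.1% of the same genes, and voom for 8, against 16.5%.

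The estimates were small and close together. The median log2 fold change of Cre+ over Cre- was 0.05 over the 48 genes, beside 0.0018 over all genes tested, and 32 were positive (66.7%, against 50.3% of all genes). Among the constitutive subunits the fold changes ran from -0.19 to 0.21. Their SE were 0.057 to 0.086, so that each of the 31 intervals (95%) lay within 0.5 on the log2 scale on either side of 0, from a lowest bound of -0.35 for Psmc6 to a highest of 0.39 for Psmb4. Over all 48, 44 intervals lay within that bound, and the widest excursions were those of Psmb9 (up to 0.79) and Psmc3ip (down to -0.41).

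**Figure D1:**
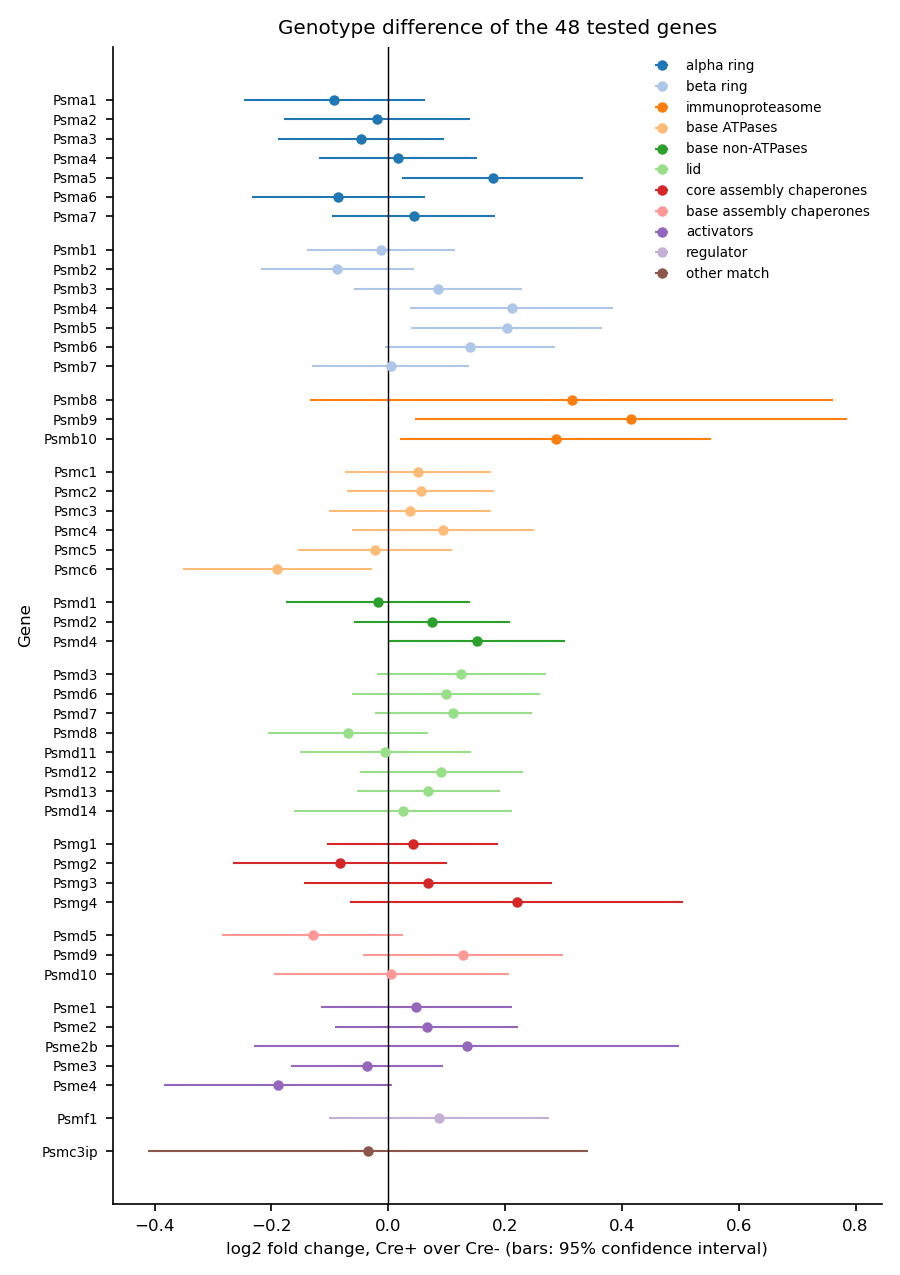
Log2 fold change of Cre+ over Cre- (x axis) for each of the 48 tested genes (y axis), grouped and coloured by class, with bars for the 95% confidence interval, n = 5 mice per group. All but 6 intervals include 0, and the 3 immunoproteasome genes have the widest intervals of the ring genes.

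These transcripts also varied little between mice of 1 group. The coefficient of variation (SD over mean of CPM) had a median of 6.64% among the constitutive subunits in Cre- mice and of 5.43% in Cre+ mice, where all genes tested had 14.0% and 16.6%. All genes tested include those of low count, in which counting error adds variation, and genes of a like level were not compared. The immunoproteasome genes varied more, with medians of 24.6% and 17.5%. Mean log2 ratios of the 31 constitutive subunits to the Cre- mean were -0.07, 0.06, 0.02, 0.07 and -0.08 in Cre- mice 1 to 5, and 0.0010, 0.02, 0.08, 0.03 and 0.06 in Cre+ mice. The highest Cre- mice thus lay among the Cre+ mice.

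As a share of all counts the 50 genes took 0.353% ± 0.0138 in Cre- and 0.379% ± 0.0104 in Cre+ mice (SD, n = 5). That share moves with the mitochondrial DNA, whose genes took 22.2% ± 1.79 and 18.4% ± 0.657 of the counts. Of the counts from nuclear genes the proteasome took 0.454% ± 0.0134 and 0.464% ± 0.0110, a difference below the SD in either group. TMM is meant to take such shifts in composition out of the CPM.

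**Figure D2:**
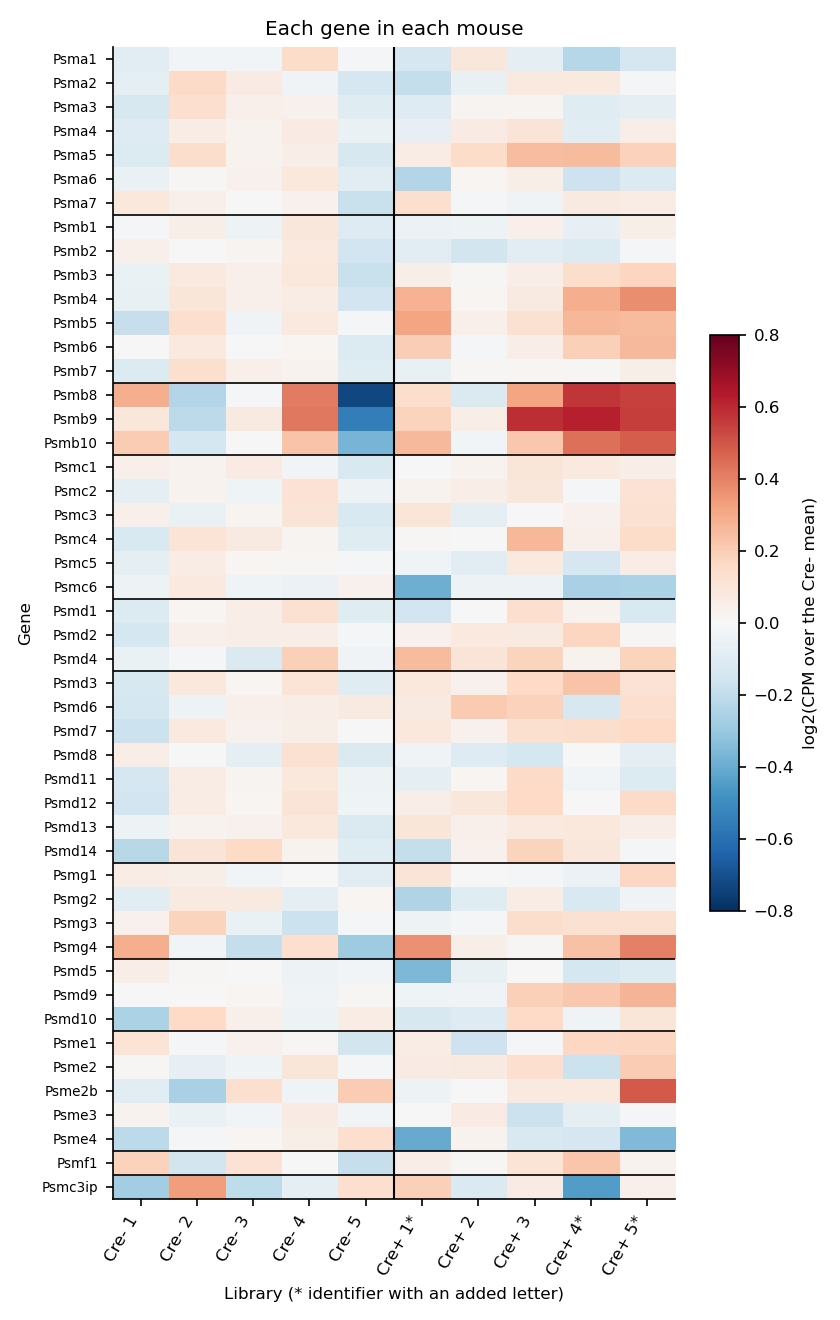
Log2 ratio of each gene's CPM to its Cre- mean (colour) for the 48 tested genes (rows, by class) in the 10 libraries (columns, asterisks for lettered identifiers). Psmb8, Psmb9 and Psmb10 are lowest in Cre- mouse 5, and Psmb4, Psmb5 and Psmb6 are highest in the asterisked libraries.

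Levels between genes were compared per kilobase of annotated exon. In Cre- mice the constitutive subunits spanned 12.6 CPM per kilobase (Psmd11, a lid scaffold) to 120 (Psma6, of the alpha ring), with a median of 32.7. The median level was 54.7 CPM per kilobase in the beta ring, 42.6 among the base ATPases, 29.7 in the alpha ring and 22.9 in the lid. Within a ring or class of constitutive subunits the levels differed up to 5.85-fold (Psma6 over Psma5) in this measure, which divides by the length of all annotated exons and so lowers genes with long, little used ones. Of the cutting subunits, Psmb5 stood at 59.3 ± 4.92, Psmb6 at 54.7 ± 2.57 and Psmb7 at 33.9 ± 2.35 CPM per kilobase (SD). These levels come from the same mice, and whether the first 2 differed was not tested. The immunoproteasome genes were lower, Psmb10 at 12.8 ± 2.15, Psmb8 at 4.85 ± 1.41 and Psmb9 at 2.46 ± 0.604. Chaperones of assembly lay between 2.12 (Psmg3) and 16.7 (Psmg1), and Psmf1, an inhibitor of the core, at 2.76 ± 0.307. The activators spread from 1.11 (Psme2b) to 50.1 (Psme2).

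**Figure D3:**
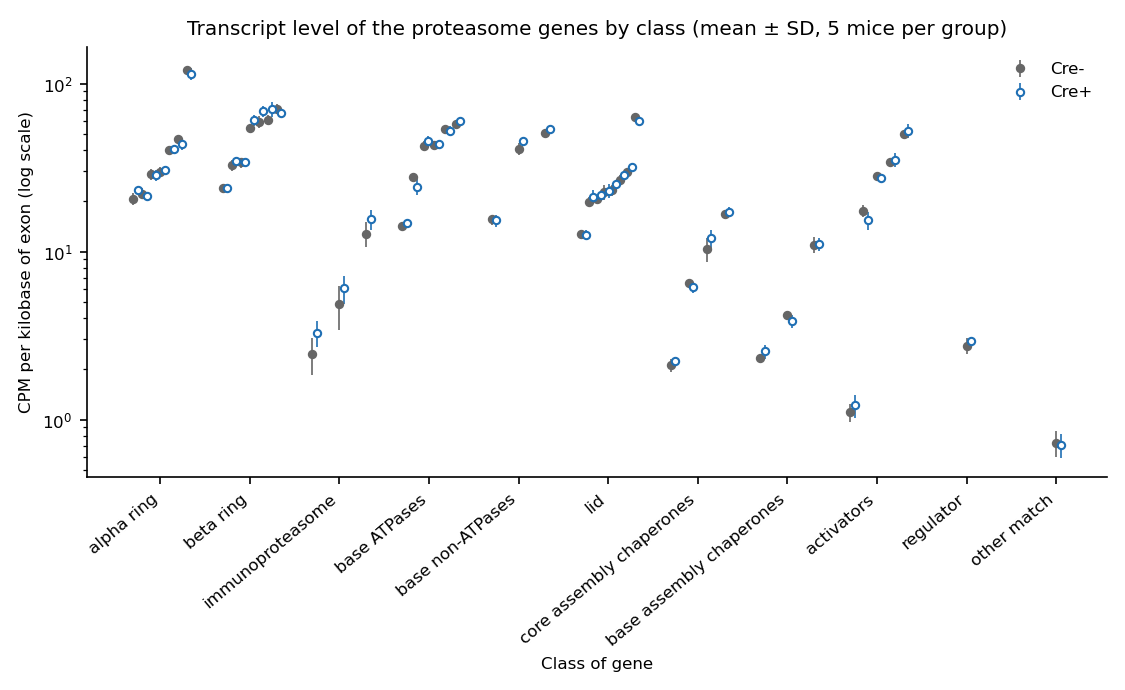
CPM per kilobase of exon (y axis, log scale) of each gene by class (x axis), as mean and SD over 5 Cre- mice (filled) and 5 Cre+ mice (open); Psma8 and Psmb11, at 0.0209 and 0.00067 CPM per kilobase in Cre- mice, are left out. Ring, base and lid genes lie at 12.6 to 120 in Cre- mice, above most assembly chaperones and the immunoproteasome genes Psmb8 and Psmb9.

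The regions before the gene starts were searched for motifs of Nfe2l1, of NF-Y, of the interferon response and of the heat shock response. RefSeq sequences of 250 bases before to 50 after the start (GRCm38.p6) matched 42 of the 50 genes, without Psma8, Psmb1, Psmb2, Psmb7, Psmc3, Psmd3, Psmd7 and Psmg2. The core of the antioxidant response element bound by Nfe2l1, TGACNNNGC on either strand, was found in 6 of the 42 (14.3%), against 14.0% of 27025 genes with such a sequence. Among the 6 were the cutting subunits Psmb5 and Psmb6 and the ATPase Psmc6. The match and 6 bases on either side are shown for all 6, on the gene's strand with the match in capitals, and where the capitals read GC first the motif lies on the other strand.
Psmb5 at chr14:54618028-54618048, minus strand: aagttgTGACGTCGCggcgtt
Psmb6 at chr11:70525342-70525362, plus strand: agagagTGACGGAGCgcttta
Psmd9 at chr5:123228153-123228173, plus strand: agccggTGACCCCGCccactt
Psmc6 at chr14:45329591-45329611, plus strand: ccagtaGCTAAGTCAggcatt
Psme4 at chr11:30771762-30771782, plus strand: gcggctGCAGCGTCAccagaa
Psmd12 at chr11:107479278-107479295, plus strand: tctGCTGTGTCAcatttg
Counted from the start, the match began at -47 in Psmb5, -9 in Psmb6, -31 in Psmd9, -227 in Psmc6, -7 in Psme4 and -247 in Psmd12, where the searched sequence began just before it. These 6 genes did not move one way, with fold changes of 0.20, 0.14, 0.13, -0.19, -0.19 and 0.09, and 0 of them passed the adjusted threshold.

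The core of the interferon-stimulated response element (GAAA repeated after a gap of 2 bases, on either strand), was found in 5 of the 42 genes (11.9%), against 3.99% of all, and in none of Psmb8, Psmb9 and Psmb10. The matches are shown because the PA28 subunit Psme1 and the receptor Psmd4 are among them, again on the gene's strand with the match in capitals, which read TTTC first where the motif lies on the other strand.
Psme1 at chr14:55578497-55578518, plus strand: ctgtgcTTTCGCTTTCccttcc
Psmg4 at chr13:34162973-34162994, plus strand: gcatctGAAAGTGAAAgagcgt
Psmb3 at chr11:97703265-97703286, plus strand: gtgactTTTCACTTTCcgcttt
Psmd4 at chr3:95042679-95042700, minus strand: ccaaccTTTCCATTTCtgtggc
Psmd9 at chr5:123228025-123228046, plus strand: cagaatGAAAAAGAAAggaatg
The CCAAT box of NF-Y was found in 15 of the 42 (35.7%, against 41.1% of all genes), and the heat shock element (GAA and TTC in turn, 3 in all with gaps of 2 bases) in 0 (0.662% of all). A match of letters does not show that a factor binds there.

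Among the cutting subunits, Psmb5 (ENSMUSG00000022193.8, GRCm39 chr14:54851576-54855479) was measured at 46.8, 58.4, 52.2, 56.2 and 52.7 CPM in Cre- mice 1 to 5 and at 66.2, 54.9, 57.9, 64.2 and 63.5 CPM in Cre+ mice. Cre+ mice 1, 4 and 5 lay above all Cre- mice, and mice 2 and 3 within their range. The log2 fold change was 0.20 (SE 0.08, interval 0.04 to 0.37, unadjusted p = 0.0186, edgeR adjusted p = 0.30). Psmb6, the subunit that cuts after acidic residues, was at 103, 108, 103, 104 and 94.8 CPM in the Cre- mice and 117, 101, 106, 117 and 123 in the Cre+ mice. The same 3 Cre+ mice were again above every Cre- mouse, with a log2 fold change of 0.14 (SE 0.07, edgeR adjusted p = 0.424). Psmb7, the subunit that cuts after basic residues, was at 108 to 127 CPM in the Cre- mice and 111 to 120 in the Cre+ mice, and its log2 fold change was 0.0044, with an interval of -0.13 to 0.14.

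The rest of the beta ring has no protease activity of its own. Psmb4, the last beta subunit to close the ring, had 114, 127, 122, 124 and 107 CPM in the Cre- mice and 144, 120, 125, 145 and 153 in the Cre+ mice. As in Psmb5, Cre+ mice 1, 4 and 5 were above all Cre- mice and the other two were not, and the log2 fold change was 0.21 (SE 0.08, unadjusted p = 0.0210, edgeR adjusted p = 0.314), the highest of the constitutive subunits. Psmb2 was the lowest of the ring at -0.09 (interval -0.22 to 0.04). The median over the 7 genes was 0.09, with 5 positive, and became 0.045 without Cre- mouse 5.

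In the alpha ring 3 of 7 fold changes were positive, with a median of -0.02. Psma5 had 25.2, 29.9, 27.7, 28.3 and 24.9 CPM in the Cre- mice and 28.3, 30.1, 32.2, 32.4 and 30.9 in the Cre+ mice. Of the Cre+ mice, 4 were above every Cre- mouse and the fifth lay at the level of Cre- mouse 4, with a log2 fold change of 0.18 (SE 0.07, unadjusted p = 0.0267, edgeR adjusted p = 0.340). Psma1 was lowest in the ring at -0.09, with an interval of -0.25 to 0.06.

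Of the base ATPases, which thread the unfolded chain into the barrel, Psmc6, whose match to the response element is printed with those of Psmb5 and Psmb6, had the lowest fold change of all 48 genes. It was measured at 94.7, 103, 94.8, 94.2 and 99.6 CPM in the Cre- mice and at 74.2, 94.6, 94.6, 81.1 and 81.7 in the Cre+ mice. Here Cre+ mice 1, 4 and 5 were below all Cre- mice, and mice 2 and 3 were at the Cre- level. The log2 fold change was -0.19 (SE 0.08, interval -0.35 to -0.03, unadjusted p = 0.0249, edgeR adjusted p = 0.333). Psmc4 was highest among the ATPases at 0.09. Of the 3 other base subunits, the ubiquitin receptor Psmd4 had 106 to 131 CPM in the Cre- mice and 117 to 136 in the Cre+ mice, with a log2 fold change of 0.15 (SE 0.07, unadjusted p = 0.0507), and the scaffold Psmd1 had -0.02.

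The lid had 6 of 8 positive fold changes and a median of 0.08, and its members ran from -0.07 in Psmd8 to 0.13 in Psmd3. Psmd14, the lid's deubiquitinase, was at 0.03 with an interval of -0.16 to 0.21. Of the lid genes, 0 had an unadjusted p under 0.05 in edgeR (12.3% of all genes), and 0 genes of the lid or the base passed the adjusted threshold.

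All 3 immunoproteasome genes had positive estimates, and 0 of them passed the adjusted threshold (0.164% of all genes). Psmb8 and Psmb9 lie side by side in the class II region (GRCm39 chr17:34416695-34420428 and chr17:34400961-34406738), next to the peptide transporters Tap1 and Tap2, and Psmb10 lies apart from them on chr8:106662367-106665076. Psmb8 had 20.1, 13.9, 16.2, 21.8 and 9.90 CPM in the Cre- mice and 18.1, 15.2, 20.4, 24.4 and 24.0 in the Cre+ mice. The ranges overlapped in 3 Cre+ mice, and the log2 fold change was 0.31 (SE 0.20, interval -0.13 to 0.76, edgeR adjusted p = 0.576).

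Psmb9 was the highest estimate of the 48 genes. It had 9.58, 7.78, 9.47, 12.1 and 6.14 CPM in the Cre- mice and 10.2, 9.33, 13.6, 13.8 and 13.2 in the Cre+ mice, 3 of which were above all Cre- mice. The log2 fold change was 0.42 (SE 0.17, interval 0.05 to 0.79, unadjusted p = 0.0305, edgeR adjusted p = 0.355). Its exons share 212 bases with Tap1 on the opposite strand, and counting did not use strand, so reads there cannot be told apart. Psmb10 had 25.1, 19.8, 21.7, 25.6 and 16.9 CPM in the Cre- mice and 26.1, 21.5, 25.4, 29.6 and 30.5 in the Cre+ mice, with Cre+ mice 2 and 3 inside the Cre- range. Its log2 fold change was 0.29 (SE 0.12, interval 0.02 to 0.55, unadjusted p = 0.0367, edgeR adjusted p = 0.371).

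Cre- mouse 5 was the lowest of all 10 for each of the 3 genes. Without it the fold changes of Psmb8, Psmb9 and Psmb10 were 0.18, 0.31 and 0.21. Leukocytes express these subunits constitutively, and in a bulk tissue more such cells and more RNA per cell cannot be told apart. Leukocyte markers summed to 35.4, 34.3, 34.8, 44.7 and 31.8 CPM in Cre- mice and 34.0, 35.0, 44.2, 51.0 and 33.8 CPM in Cre+ mice. Of the 8 leukocyte markers 2 were higher in Cre+ mice at an unadjusted p under 0.05 in edgeR, and of 6 B cell markers 4 were (6.40% of all genes). Of 8 macrophage markers and 6 markers of T and NK cells, 0 were. The B cell sums were 1.13 to 2.20 CPM in Cre- and 1.83 to 3.61 CPM in Cre+ mice. Cre- mouse 5, lowest in all 3 genes, also had the lowest leukocyte sum, and Cre- mouse 4, highest of the Cre- mice in all 3, had the highest Cre- sum. Fibroblast markers had the same 2 extremes among the Cre- mice, at 390.9 and 718.8 CPM. In B cell markers Cre- mouse 5 instead had the highest Cre- sum, at 2.20 CPM. In macrophage markers Cre- mouse 4 was highest of the Cre- mice (107.5 CPM), but the lowest was mouse 1 (78.7 CPM), not mouse 5 (80.6 CPM). Among the Cre+ mice, mouse 4 was highest in Psmb8, Psmb9 and the leukocyte sum, and in macrophage markers (133.7 CPM, against 76.5 to 115.4 CPM in the others). Cre+ mouse 5 was highest in Psmb10 and had the lowest leukocyte sum of its group. The part of these cells in the estimates was not tested.

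**Figure D4:**
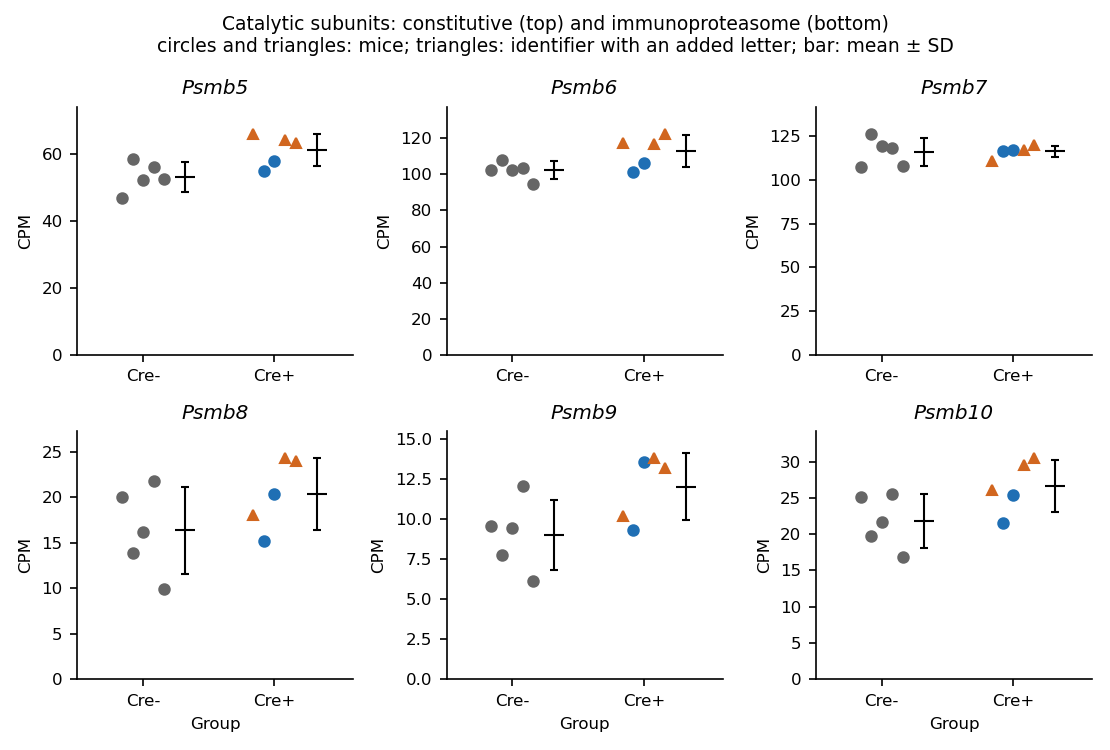
CPM (y axis, from 0) of the 3 constitutive cutting subunits (top) and the immunoproteasome subunits that replace them (bottom) in each Cre- and Cre+ mouse (x axis), with mean and SD, n = 5; triangles are the 3 lettered Cre+ libraries. In Psmb5 and Psmb6 only the triangles lie above the Cre- mice, and in Psmb8, Psmb9 and Psmb10 both groups spread widely.

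Each immunoproteasome gene was also set against the subunit it replaces, per kilobase. Psmb8 over Psmb5 was 0.0826 ± 0.0267 in Cre- and 0.0882 ± 0.0142 in Cre+ mice (SD, n = 5), and 0 of 5 Cre+ mice exceeded the highest Cre- mouse. Psmb9 over Psmb6 was 0.0449 ± 0.0104 and 0.0545 ± 0.00888, with 2 of 5 above. Psmb10 over Psmb7 was 0.379 ± 0.0705 and 0.459 ± 0.0585, with 3 of 5 above. The Cre- and Cre+ ranges overlapped in each pair.

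The activators open the core without the ATPase cap. Psme1 and Psme2, which form the interferon-inducible ring PA28, had log2 fold changes of 0.05 (interval -0.12 to 0.21) and 0.07 (-0.09 to 0.22). Psme1 was at 67.9 to 81.3 CPM in the Cre- mice and 67.1 to 84.8 in the Cre+ mice, and Psme2 at 84.2 to 94.6 and 78.5 to 102 CPM. Psme3, the nuclear form, had -0.04 (-0.17 to 0.09). Psme4, the large activator PA200, had 127, 145, 148, 151 and 161 CPM in the Cre- mice and 111, 149, 134, 133 and 115 in the Cre+ mice, so that Cre+ mice 1 and 5 lay below every Cre- mouse, with a log2 fold change of -0.19 (SE 0.09, unadjusted p = 0.0572, edgeR adjusted p = 0.423). Psme2b, a copy related to Psme2, stood near 1 CPM in both groups, at 0.13 (-0.23 to 0.50) with all mice and 0.03 without Cre+ mouse 5. Multi-mapping reads were left out of the counts, so reads that fit both copies equally are missing from each. Psmf1 had 15.6 to 20.2 and 17.9 to 20.8 CPM, at 0.09 (-0.10 to 0.28).

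Among the chaperones of core assembly, the fold changes ran from -0.08 (Psmg2) to 0.22 (Psmg4, interval -0.06 to 0.50). Among those of the base they ran from -0.13 (Psmd5, interval -0.28 to 0.03, and -0.08 without Cre+ mouse 1) to 0.13 (Psmd9, -0.04 to 0.30). Psmd9 had 16.6 to 17.1 CPM in the Cre- mice and 16.5, 16.5, 19.2, 19.6 and 20.3 in the Cre+ mice, so its Cre- mice were closely grouped and its Cre+ mice were not. The meiotic factor Psmc3ip had -0.03 (-0.41 to 0.34), and 21.2% of its exon bases lie opposite Mlx, which had 33164 counts in all against its 1399.

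The 3 lettered Cre+ libraries stood apart from the other 2 in many of these genes. Their CPM did not overlap those of Cre+ mice 2 and 3 in 18 of the 48 genes, or 37.5%, against 23.3% of all genes. In 9 the lettered libraries were higher (12.0% of all genes) and in 9 they were lower (11.3% of all genes). In 8 of the 48 they did not overlap any of the 7 other libraries either (16.7%, against 5.55% of all genes). Psmb4, Psmb5, Psmb6 and Psmb10 were higher in them, and Psma1, Psma6, Psmc6 and Psmd5 were lower. Psma6, for example, was at 127, 133 and 138 CPM in the lettered Cre+ libraries, 150 and 153 in the others and 140 to 158 CPM in Cre- mice. All 3 lettered libraries are Cre+, so the letter and the genotype cannot be told apart within them.

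**Figure D5:**
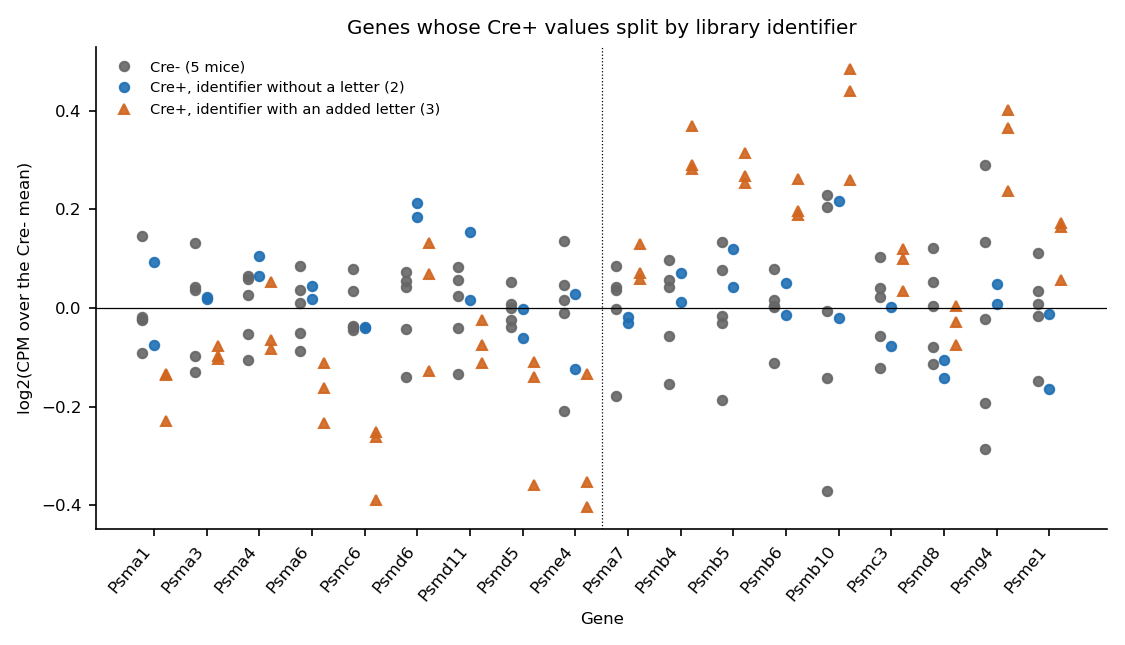
Log2 ratio of CPM to the Cre- mean (y axis) for the 18 genes (x axis) in which the 3 lettered Cre+ libraries (triangles) do not overlap the 2 without (blue circles), beside the 5 Cre- mice (grey circles). In 9 genes, to the left of the dotted line, the triangles are lower, and in 9 they are higher.

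Without these 3 libraries, 1 of the 48 genes (Psmd6, a lid subunit, higher at 0.19) had an unadjusted p under 0.05, against 9.94% of all genes, and 0 passed the adjusted threshold (0.230% of all genes). The comparison then rests on 2 Cre+ mice. The log2 fold change became 0.08 for Psmb5, 0.04 for Psmb4, 0.02 for Psmb6, -0.04 for Psmc6, 0.10 for Psmb10, 0.11 for Psmb8 and -0.05 for Psme4, each nearer to 0 by over 1.5 times. It was 0.34 for Psmb9 and 0.19 for Psma5. Psmg4 went from 0.22 to 0.02 and Psmd5 from -0.13 to -0.04. In 10 of the 48 genes the sign turned, all of them with estimates nearer to 0 than 0.1 in the comparison of all mice. These were Psma1, Psma2, Psma3, Psma6, Psma7, Psmc3, Psmd1, Psmd11, Psme1 and Psmg1. Psme1 turned from 0.05 to -0.09, for example, and Psma6 from -0.09 to 0.03. The class medians became 0.02 in the alpha ring, 0.02 in the beta ring, 0.11 for the immunoproteasome, 0.0042 for core assembly and -0.05 for the activators. They were 0.02 for the base ATPases, 0.07 for the other base subunits, 0.09 for the lid and 0.03 for base assembly. Over the 31 constitutive subunits the median went from 0.04 to 0.05, and over the 48 genes from 0.05 to 0.04.

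Genes that work with the proteasome were described in the same way. Of 16 tested components, chaperones and cofactors outside the Psm symbols, 0 passed the adjusted threshold. At an unadjusted p under 0.05 in edgeR, 1 was higher (6.40% of all genes) and 3 were lower (5.95% of all genes) in Cre+ mice. The ubiquitin receptor Adrm1 had 57.4 ± 5.87 CPM in the Cre- mice and 67.7 ± 5.65 in the Cre+ mice (a log2 change of 0.24). The shuttle Ubqln1 had 172 ± 6.20 and 147 ± 11.7 CPM (-0.23), the stress-induced Zfand2a 21.7 ± 2.64 and 17.5 ± 2.84 CPM (-0.31), and Akirin2, which brings proteasomes into the nucleus, 23.3 ± 0.770 and 20.6 ± 1.93 CPM (-0.18). Without the lettered libraries these became 0.13 for Adrm1, -0.19 for Ubqln1, -0.45 for Zfand2a and -0.04 for Akirin2.

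Of the 12 genes of the Nfe2l1 route 0 had an unadjusted p under 0.05 in edgeR (12.3% of all genes), and the median was -0.05. The largest estimates there were those of the small Maf partners Maff (-0.33) and Mafk (-0.27), both with an unadjusted p above 0.05. Nfe2l1 itself had 501 ± 29.8 CPM in the Cre- mice and 528 ± 33.5 CPM in the Cre+ mice. Its log2 fold change was 0.07, and 0.0042 without the lettered libraries. Without those libraries, 4 of the 12 were lower at an unadjusted p under 0.05 in edgeR and 0 were higher, against 9.94% of all genes in either direction. The median of the 12 was -0.01 in that fit. Mafk was then at -0.65 and was called (edgeR adjusted p = 0.0455), Maff was at -0.63, Nfe2l2, the relative of Nfe2l1 that answers oxidative stress, at -0.31 and Mafg at -0.26. In the lettered Cre+ libraries Mafk was at 16.9, 23.0 and 11.7 CPM, in Cre+ mice 2 and 3 at 12.0 and 10.9, and in the Cre- mice at 16.6 to 19.1. The lettered libraries thus overlapped the other Cre+ mice, and mice 1 and 4 were the highest of the group. Of the 6 genes for ubiquitin and its activation, Uba6, an activating enzyme, was lower at an unadjusted p of 0.0129 (edgeR adjusted p = 0.268), with a log2 fold change of -0.27 that became -0.14 without the lettered libraries. The ubiquitin gene Ubb was at -0.30 with all mice (edgeR unadjusted p = 0.0602) and at -0.43 without those libraries. In that fit it was the 1 gene of the 6 with an unadjusted p under 0.05 in edgeR (9.94% of all genes).

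On the side of antigen presentation, 1 of 10 genes was higher at an unadjusted p under 0.05 in edgeR (6.40% of all genes). This was Tap2, with 47.5 ± 3.99 CPM in the Cre- mice and 57.3 ± 6.80 in the Cre+ mice (a log2 change of 0.27, SE 0.09, edgeR adjusted p = 0.244). Its fold change without the lettered libraries was 0.09. The list's median was -0.01. Of 14 interferon-induced genes and their regulators, 1 was lower at an unadjusted p under 0.05 in edgeR (5.95% of all genes) and 0 were higher, with a median of -0.07. The lower gene was Isg15, with 3.91 ± 0.743 and 3.12 ± 0.238 CPM.

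The TRiC chaperonin folds new proteins such as actin and tubulin. Of its 8 genes, 7 were lower in Cre+ mice at an unadjusted p under 0.05 in edgeR, against 5.95% of all genes. In 7 the groups' CPM did not overlap, against 2.67% of all genes. Cct4 had 132 ± 3.96 and 106 ± 6.16 CPM (a log2 change of -0.32, SE 0.06, edgeR adjusted p = 0.0598), and Cct6a 134 ± 8.94 and 108 ± 7.93 CPM (-0.31, adjusted p = 0.0979). edgeR called 0 of the 8, DESeq2 called 4 and voom called 2 (0.164%, 2.28% and 0.837% of all genes). Their summed level was 1118 to 1166 CPM in the Cre- mice and 941.7 to 1033 in the Cre+ mice. The median log2 fold change of the 8 was -0.22 with all mice and -0.24 without the lettered libraries. In the latter fit 6 were lower at an unadjusted p under 0.05 in edgeR (9.94% of all genes in either direction). There edgeR called 0 of the 8 (0.230% of all genes). Whether this list and the proteasome genes differed was not tested.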

How the data were processed

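Per the submitters' processing notes, Trimmomatic, STAR (GRCm39; versions of both not stated) and featureCounts 2.0.1 with GENCODE M28 were used. The deposited values are the authors' raw counts per gene. Each mate was counted alone, without strand, and multi-mapping reads were left out. Groups follow the labelled genotype. Symbols came from a table of identifiers, which matched 94.0% of genes.

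edgeR 4.0.16 (R 4.3.3) was run on all genes with TMM, filterByExpr (minimum count 10), the quasi-likelihood test and Benjamini-Hochberg adjustment over 17690 genes, tested on simulated data. An interval is the fold change ± the t quantile times its SE, at 95%. Replicates are separate mice. Alternatives used DESeq2 1.42.0 and limma 3.58.1 and are given at the end. Named were the cutting subunits, activators and Psmf1, the 8 smallest p-values, the extremes of each class and up to 4 genes per related list. Psma2, Psma3, Psma6, Psma7, Psmc3, Psmd6, Psmd11, Psmd14, Psmg1, Psmg3, Mafg and Nfe2l1 were named after their values were seen. Members, lists and rules were chosen with earlier results of these data known.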

Additional observations from a re-analysis of the deposited data

Results flagged for a closer look

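In 27 genes named by rule, each group of 5 mice was checked for a library far from the other 4, which chance alone flags in about 1 of 20 groups. Of 54 groups, 1 stood out. Psme2b was at 1.30 CPM in Cre+ mouse 5 and at 0.900 to 0.979 CPM in the other Cre+ mice. Without that mouse its log2 fold change was 0.03, against 0.13 with all mice.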

How the results depend on the processing

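Under each of 20 alternatives, 0 proteasome genes were called, and the median log2 fold change of the 48 stayed positive, at 0.02 (without Cre- replicate 5) to 0.06. Over all genes, the count of 29 became 393 with DESeq2, 148 with voom and sample quality weights, 92 with no filter on low counts, 1 with the level of immediate early genes as a covariate, 289 without Cre- mouse 2 and Cre+ mouse 4, and 9 (without Cre+ mouse 1) to 331 (without Cre+ mouse 4) over the fits lacking 1 library each. At an unadjusted p under 0.05, the proteasome genes higher in Cre+ mice numbered 1 to 8 and those lower 0 to 2.

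Estimates near 0 changed sign. Psmb7 was -0.00086 and Psmc3ip 0.041 with voom, and Psmc3ip was 0.15 without Cre- mouse 2 and Cre+ mouse 4. Without the lettered libraries Psme1 was -0.091, Psma1 0.0065 and Psmd1 0.067. With each library left out, Psmb7 ran from -0.022 to 0.041, Psmc3ip from -0.098 to 0.065 and Psmd1 from -0.063 to 0.018. The causes were not tested. The other 524 of 540 fold changes of named genes kept their sign and their side of the threshold, and the lowest adjusted p among the 540 was 0.184.

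Replicate numbers did not pair the mice, with same-number correlations of -0.195 to 0.216 and 2 of 5 best matched to their own number. With the number as a block, 23 genes and 0 proteasome genes were called. Ratios of raw counts differ from ratios per kilobase only by a constant in each pair. Their log2 group differences are therefore the same by construction, and they are no check of the result.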
